A study of Mus musculus with 6 samples.

Results

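The cortical layer and projection neuron transcription factors described here are 9 genes, *Cux1*, *Cux2*, *Rorb*, *Bcl11b*, *Fezf2*, *Tbr1*, *Tle4*, *Foxp2* and *Neurod6*, taken by symbol from the 52390 genes listed. Each had a single row in the table, and all 9 passed the filter on low counts that left 21844 genes for testing. RNA-seq was performed on brain tissue from 3 control mice and 3 *AP1AR-DT* OE mice, all male C57BL/6 mice aged 8 weeks when an adeno-associated virus (AAV) was injected into the medial prefrontal cortex (mPFC). The *AP1AR-DT* OE mice received a virus carrying the human lncRNA *AP1AR-DT*, which the sample labels call AC109347.1, driven by the neuronal promoter of human synapsin I, in a vector that also expresses EGFP. The control mice, labelled wild type, received a virus with an empty vector, so both groups carried AAV. The labels give the tissue as brain, and the methods of the study name cortical tissue while its results name the mPFC. The control libraries keep the numbers of their mice (1 to 3). The columns of the *AP1AR-DT* OE group are numbered differently from its mice and are called libraries A, B and C. *AP1AR-DT* is a human gene and the table lists mouse genes, so its level was not used to check the labels.

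The neocortex is built of layers whose excitatory neurons project to different targets, and these factors help to set and keep those identities. CUX1 and CUX2 mark the upper layers, whose neurons project mainly within the cortex, and RORB marks layer 4, which receives thalamic input. FEZF2 and BCL11B (CTIP2) specify the subcerebral projection neurons of layer 5, TBR1 and TLE4 mark the corticothalamic neurons of layer 6, FOXP2 is found in layer 6, and NEUROD6 is a basic helix-loop-helix factor of maturing and adult pyramidal neurons. None of these genes is exclusive to the cortex. *Bcl11b*, *Foxp2* and *Tle4* are also used by striatal neurons, *Rorb* and *Foxp2* by thalamic neurons, *Tbr1* by the projection neurons of the olfactory bulb, and *Neurod6* by hippocampal pyramidal neurons.

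The libraries held between 42061721 and 54668294 counts, and several of them stood apart in markers of brain regions other than the mPFC. The markers are given as the mean centred log2 level of a list, that is, relative to the mean of all 6 libraries. The choroid plexus list stood at 3.57 and the thalamic list at 2.07 in control 3, while each was below 0 in the other 5 libraries. The hypothalamic list stood at 2.61 in control 2 and 1.10 in control 3 and was below 0 in the rest. The list of 10 striatal markers was lowest in control 2 (-1.22) and highest in library A (1.37). The list of 8 cortical excitatory neuron markers was lowest in control 2 at -1.48 and highest in library B at 1.08. *Slc17a7*, the vesicular glutamate transporter that defines most cortical excitatory neurons, was at 28.2, 3.86 and 233 normalized CPM in controls 1 to 3 and at 231, 463 and 87.2 in libraries A to C. *Slc17a7* was therefore close to absent in control 2, although the tissue was described as cortical. After the level of *Eomes* had been seen, 4 olfactory genes were added, and all of them were highest in library C, *Cdhr1* at 69.5 normalized CPM against 3.84 to 7.68 in the other libraries and *Omp* at 39.2 against 0.482 to 4.38.

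**Figure D1:**
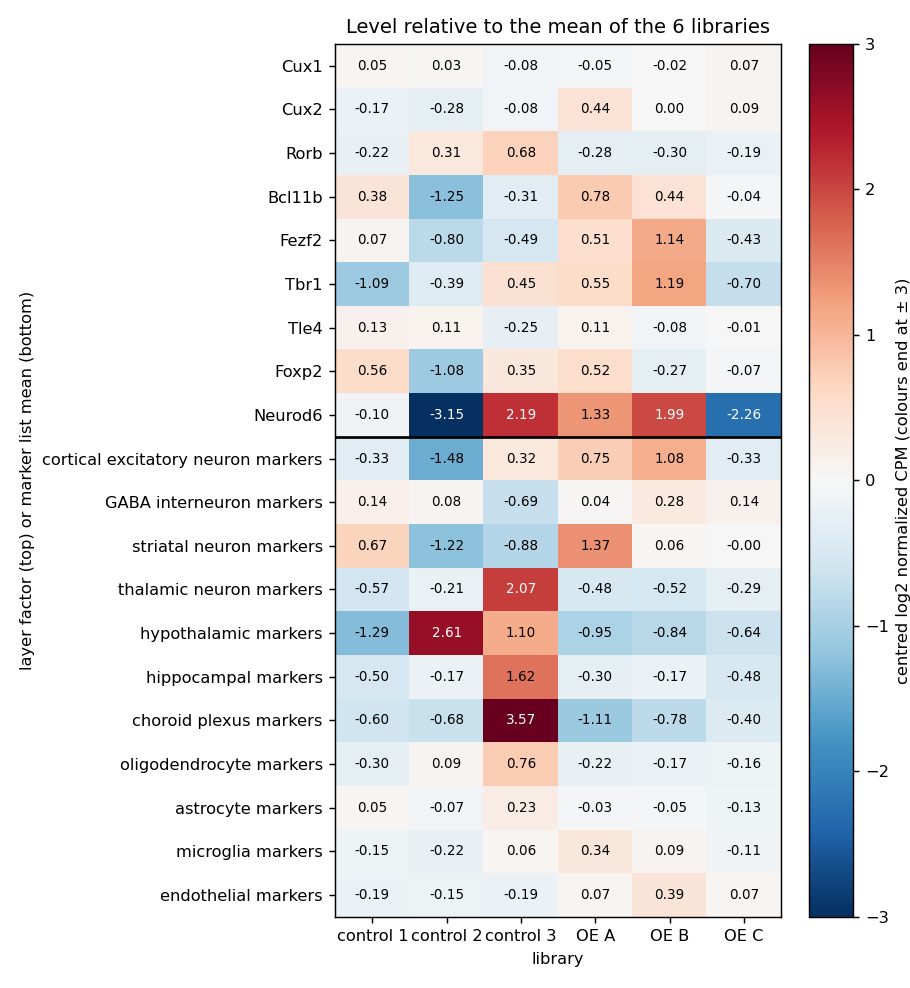
Centred log2 normalized CPM of the 9 layer factors (upper rows) and mean of each marker list (lower rows) in the 6 libraries, each relative to the mean of all libraries, with colours from -3 (blue) to 3 (red). *Neurod6* ranges from -3.15 in control 2 to 2.19 in control 3, while *Cux1* lies between -0.08 and 0.07, and the choroid plexus list reaches 3.57 in control 3.

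The factors lie on 6 autosomes in GRCm38 (GENCODE vM21). *Cux1* spans 136248135 to 136567490 of chromosome 5 (minus strand), and *Cux2* spans 121856366 to 122050102 of the same chromosome and strand. *Rorb* spans 18930605 to 19111196 of chromosome 19 (minus strand), where *Tle4* spans 14448150 to 14598051 on the same strand. Chromosome 6 holds *Foxp2* at 14901349 to 15441977 (plus strand) and *Neurod6* at 55677822 to 55681263 (minus strand). *Bcl11b* spans 107910403 to 108003602 of chromosome 12 (minus strand). *Fezf2* occupies 12342094 to 12348189 of chromosome 14 (minus strand), and *Tbr1* occupies 61802930 to 61814114 of chromosome 2 (plus strand). The only gene with exons overlapping those of a factor was the antisense gene *Gm16599*, which covers 1.97% of the exonic bases of *Cux1*.

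To show the sequence in front of the factor that varied most between mice (*Neurod6*), of a steady one (*Tle4*) and of the factor called lower (*Rorb*), the 250 bases before a RefSeq start are printed 5′ to 3′ on the strand of the gene (GRCm38.p6). Windows that overlap GENCODE exons of their gene were not printed, and RefSeq promoters were matched for 8 of the 9 factors. Capitals mark each E-box, CANNTG, the letters bound by basic helix-loop-helix factors such as NEUROD6, and each CCAAT box, on either strand (ATTGG), the letters for which CUX proteins were named CCAAT displacement proteins. The windows are chr6:55681264-55681513 (minus strand) for *Neurod6*, chr19:14598184-14598433 (minus strand) for *Tle4* and chr19:19111197-19111446 (minus strand) for *Rorb*.
Neurod6: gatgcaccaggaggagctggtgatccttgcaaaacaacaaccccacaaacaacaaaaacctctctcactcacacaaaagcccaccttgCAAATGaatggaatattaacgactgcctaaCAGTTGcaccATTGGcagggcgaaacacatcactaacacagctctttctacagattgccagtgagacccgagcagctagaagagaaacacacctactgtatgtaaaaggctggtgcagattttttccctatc
Tle4: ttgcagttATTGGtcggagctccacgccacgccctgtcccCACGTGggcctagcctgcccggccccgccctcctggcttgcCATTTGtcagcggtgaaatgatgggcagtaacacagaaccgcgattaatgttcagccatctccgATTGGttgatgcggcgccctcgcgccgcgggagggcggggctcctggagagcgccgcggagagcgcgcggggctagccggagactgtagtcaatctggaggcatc
Rorb: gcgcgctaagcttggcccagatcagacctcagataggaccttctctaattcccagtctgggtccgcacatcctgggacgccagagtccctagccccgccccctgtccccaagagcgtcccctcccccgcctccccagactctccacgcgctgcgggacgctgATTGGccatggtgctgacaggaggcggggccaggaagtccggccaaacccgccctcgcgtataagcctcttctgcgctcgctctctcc
The E-boxes and the CCAAT box of *Neurod6* do not overlap. At least 1 E-box was found in 6 of the 11 windows of the factors, and in 66.2% of all 32851 windows of this length. A CCAAT box was found in 3 of the 11 windows, which are the ones printed, and in 33.8% of all windows. A second *Rorb* window, chr19:19001118-19001367 (minus strand), overlaps 0 exonic bases and was not printed. It held 2 E-boxes and 0 CCAAT boxes. The letters AGGTCA, to which ROR factors bind next to an A/T-rich stretch, were in 0 of the 11 windows and in 14% of all windows. A match of letters is a description of the sequence, and binding was not measured.

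For the comparison of *AP1AR-DT* OE mice with control mice, which asks how gain of the lncRNA changed the transcriptome of the injected brain, a gene was called a DEG at P under 0.05 and |Log2FC| above 0.32 by edgeR's quasi-likelihood test. At these thresholds 1 of the 9 factors, *Cux2*, was upregulated and 1, *Rorb*, downregulated, whereas 12.2% of all genes tested were DEGs (5.1% higher and 7.15% lower). The other 7 factors were not DEGs. After Benjamini-Hochberg adjustment over all genes, 0 factors passed with edgeR, DESeq2 or limma-voom, and 0.0275% of all genes passed with edgeR. The thresholds on unadjusted P and Log2FC were passed by 2 factors with edgeR and limma-voom and by 4 with DESeq2, which added *Bcl11b* and *Fezf2* and called 13.6% of all genes tested. The median Log2FC of the 9 factors was 0.26, against -0.01 for all genes tested. This median is the value of *Neurod6*, whose SE was 1.52. With at least 10 counts required in every library, which removes *Neurod6*, the median was 0.18. In bulk tissue, fewer cells of a type and less RNA per cell cannot be told apart. Leaving out control 2 or library A, or correcting for GC content, left 0 factors called, and leaving out control 1 or library C left 3. Over all genes, DEGs numbered 2675 of 21844 tested with all libraries. They numbered 3391 of 22643 without control 1 and 3508 of 22542 without library C. Without control 2 they numbered 2204, without library A 1620, and after GC correction 1566.

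The upper-layer genes differed in how they compared between groups. *Cux1*, a homeodomain factor whose gene also encodes the Golgi protein CASP, had normalized CPM of 61.1, 60.0 and 55.6 in controls 1 to 3 and 56.7, 57.9 and 62.0 in libraries A to C. The ranges of the groups overlapped, and the Log2FC was -0.0008 ± 0.0896 (SE; edgeR adjusted P = 0.997). Over the 14 alternative fits the Log2FC of *Cux1* stayed between -0.05 and 0.03. *Cux2*, which marks upper-layer neurons and their precursors, had 35.7, 33.2 and 38.1 normalized CPM in controls 1 to 3 and 54.7, 40.3 and 42.8 in libraries A to C. Each *AP1AR-DT* OE library was above each control library, with library A the farthest, and 10.4% of all genes tested showed such a separation upwards (22.4% in either direction). The mean of *Cux2* rose from 35.7 ± 2.46 (SD, n = 3) to 45.9 ± 7.67 (SD, n = 3), a Log2FC of 0.36 ± 0.139 (SE). Its edgeR P was 0.0337 and its adjusted P 0.309 (0.19 to 0.661 over all fits), and an exact permutation test, two-sided, gave P = 0.1, the smallest that 3 mice against 3 allow. The P values measure the spread between these mice only. *Cux2* has a GC content of 55.5% in its longest transcript, and with GC content corrected for, the Log2FC of 0.21 no longer passed the thresholds. It did not pass without library A (0.22), control 1 (0.37), control 2 (0.32) or controls 2 and 3 together (0.36) either, though it was positive in all 15 fits and called in 10.

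**Figure D2:**
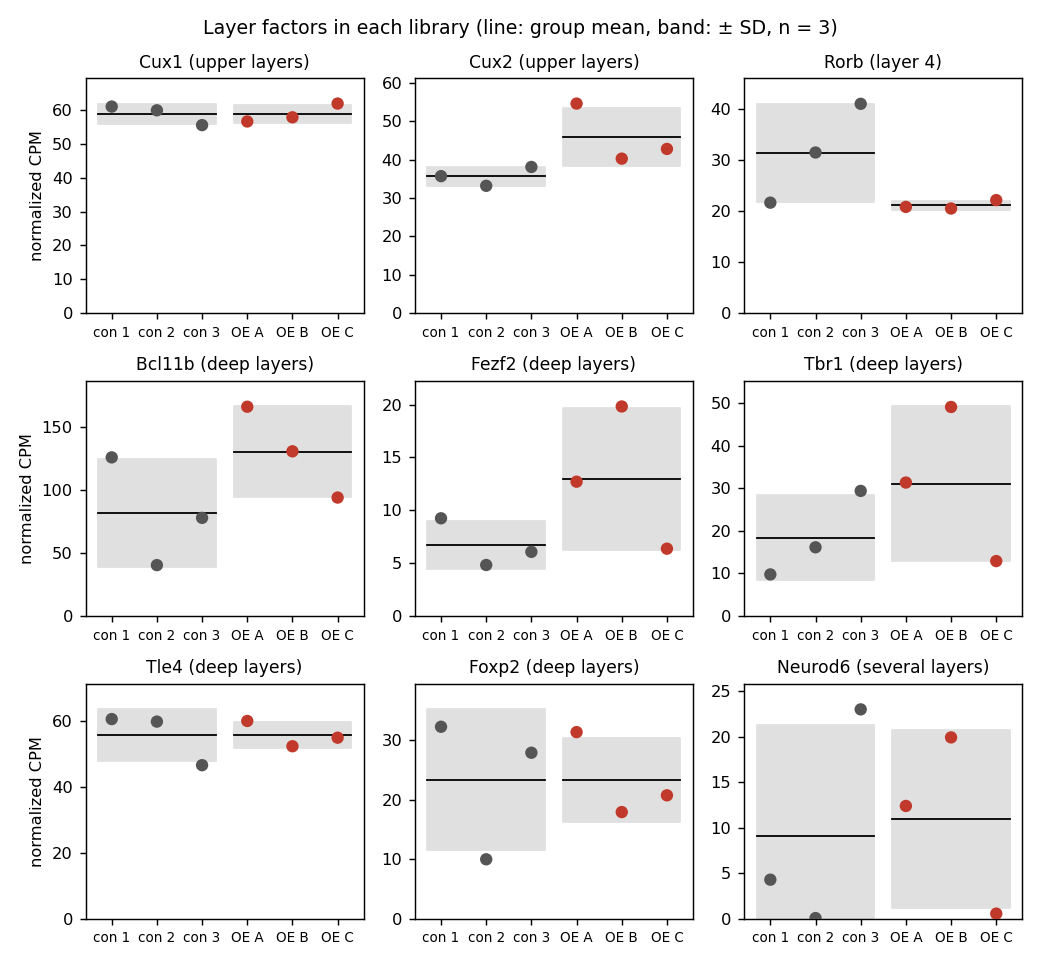
Normalized CPM of each factor (vertical axes from 0) in controls 1 to 3 (grey points) and *AP1AR-DT* OE libraries A to C (red points), with the mean of each group (line) and ± 1 SD (band, cut at 0; n = 3). *Cux2* is the only factor whose groups do not overlap; *Rorb* is close to 21 in every *AP1AR-DT* OE library and from 21.6 to 41.0 in controls.

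*Rorb*, the nuclear receptor gene of layer 4, fell in the comparison. It had 21.6, 31.4 and 41.0 normalized CPM in controls 1 to 3, and 20.8, 20.5 and 22.1 in libraries A to C. The *AP1AR-DT* OE libraries were tightly grouped and control 1 lay among them, and controls 2 and 3 lay above. The mean was 31.3 ± 9.68 (SD, n = 3) in controls and 21.1 ± 0.873 (SD, n = 3) in *AP1AR-DT* OE mice, a Log2FC of -0.57 ± 0.22 (SE). Its edgeR P was 0.0354, its adjusted P 0.311 (0.155 to 0.957 over all fits) and its exact permutation P 0.2. The thalamic list stood at -0.57, -0.21 and 2.07 in controls 1 to 3 and between -0.52 and -0.29 in the *AP1AR-DT* OE libraries. Of its 10 markers 1 was called higher and 4 lower, and their summed level was 618 to 1266 normalized CPM in controls and 429 to 693 in *AP1AR-DT* OE libraries. The part of thalamic markers in the level of *Rorb* was not tested. Without controls 2 and 3 the Log2FC of *Rorb* was -0.03, and without control 3 alone it was -0.32, neither of them called. *Rorb* has a GC content of 41.6%, and with GC content corrected for, its Log2FC of -0.34 was not called. Nor was it called without control 2 (-0.56) or without library A (-0.56), B (-0.55) or C (-0.59), so it was called in 8 of the 15 fits and negative in all of them.

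*Fezf2* and *Bcl11b*, the genes that act in sequence to specify subcerebral neurons of layer 5, had higher means in *AP1AR-DT* OE mice but wide spreads. *Fezf2*, which encodes a zinc finger factor, had 9.24, 4.82 and 6.07 normalized CPM in controls 1 to 3 and 12.7, 19.8 and 6.37 in libraries A to C. Library C lay within the control range and libraries A and B above it. The Log2FC of *Fezf2* was 0.95 ± 0.425 (SE), not called at an edgeR P of 0.0596 and an adjusted P of 0.343 (0.161 to 0.801 over all fits; exact permutation P = 0.2). It was called with DESeq2 (0.96), without control 1 (1.25) and without library C (1.29), and it was 0.51 without library B. *Bcl11b*, which encodes a zinc finger factor shared with striatal projection neurons, had 126, 40.2 and 77.7 normalized CPM in controls 1 to 3 and 166, 130 and 93.8 in libraries A to C. Control 1 lay between libraries B and C, and control 2 was the lowest of all. The Log2FC of *Bcl11b* was 0.68 ± 0.398 (SE; edgeR adjusted P = 0.44, 0.247 to 0.966 over all fits), and the exact permutation P was 0.2. With DESeq2 it was called, at the same Log2FC of 0.68. The striatal list was also highest in library A (1.37) and lowest in control 2 (-1.22). Its next highest value was in control 1 (0.67), where *Bcl11b* (126) was close to its own next highest value in library B (130). Of the 10 striatal markers 0 were called by edgeR, and all 10 had a positive Log2FC, with a median of 0.88. Their summed level was 266 to 1097 normalized CPM in controls and 705 to 2013 in *AP1AR-DT* OE libraries, and their part in the level of *Bcl11b* was not tested. Without controls 2 and 3 the Log2FC of *Bcl11b* was 0.05, and without control 1 it was 1.14 and called.

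Of the layer 6 genes, *Tbr1* varied widely and *Tle4* little. *Tbr1*, a T-box factor, had 9.76, 16.1 and 29.4 normalized CPM in controls 1 to 3 and 31.4, 49.2 and 12.9 in libraries A to C. Libraries A and B were above all controls, and library C was below controls 2 and 3. The Log2FC of *Tbr1* was 0.76 ± 0.54 (SE; edgeR adjusted P = 0.522, 0.281 to 0.904 over all fits; exact permutation P = 0.4). Leaving out library C gave 1.14, which was called, leaving out library B gave 0.26, and leaving out controls 2 and 3 gave 1.67, which was not. *Tle4*, a Groucho-type co-repressor, had 60.6, 59.8 and 46.6 normalized CPM in controls 1 to 3 and 60.0, 52.3 and 54.9 in libraries A to C. Control 3 was the lowest, and every *AP1AR-DT* OE library lay within the control range. The Log2FC of *Tle4* was 0.0026 ± 0.128 (SE; edgeR adjusted P = 0.994). *Foxp2*, a forkhead factor, had 32.3, 10 and 27.9 normalized CPM in controls 1 to 3 and 31.4, 17.9 and 20.8 in libraries A to C. Control 2 was the lowest, and the group means were equal to within their spread, at 23.4 ± 11.8 (SD, n = 3) and 23.4 ± 7.09 (SD, n = 3). The Log2FC of *Foxp2* was -0.0019 ± 0.423 (SE; edgeR adjusted P = 0.999), with a standard error several times that of *Cux1* and *Tle4*. The striatal list, like *Foxp2*, was lowest in control 2, and its part in the level of *Foxp2* was not tested.

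*Neurod6* varied more between mice of the same group than any other factor. Its deposited counts were 175, 4 and 1150 in controls 1 to 3 and 658, 1075 and 30 in libraries A to C, or 4.30, 0.0803 and 23.0 and 12.4, 19.9 and 0.572 normalized CPM. Control 2 and library C were both near 0, and control 3 was the highest, so each group spanned low and high values. The highest library was 287 times the lowest, a ratio that rests on the 4 counts of control 2, where counts derived from coverage need not be whole read pairs. The Log2FC of *Neurod6* was 0.26 ± 1.52 (SE; edgeR adjusted P = 0.948; exact permutation P = 0.7). Leaving out control 3 gave 2.35 and leaving out library B gave -0.49, neither of them called. Of the 14201 genes with a mean log2 CPM above 2, the one with the profile most like that of *Neurod6* was its paralog *Neurod2*, at a root mean square difference of 0.54 log2 units over the 6 libraries. *Neurod2* had 5.38, 0.281 and 61.2 normalized CPM in controls 1 to 3 and 34.4, 56.8 and 0.896 in libraries A to C. *Slc30a3*, the synaptic zinc transporter gene, was next at 0.72, and its lowest values were also in control 2 (1.33) and library C (2.02). Library C had *Slc17a7* at 87.2 normalized CPM, above control 1 at 28.2, while its *Neurod6* was below that of control 1. The hippocampal list was highest in control 3 (1.62) and below 0 in the other 5 libraries, and its part in the level of *Neurod6* was not tested.

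**Figure D3:**
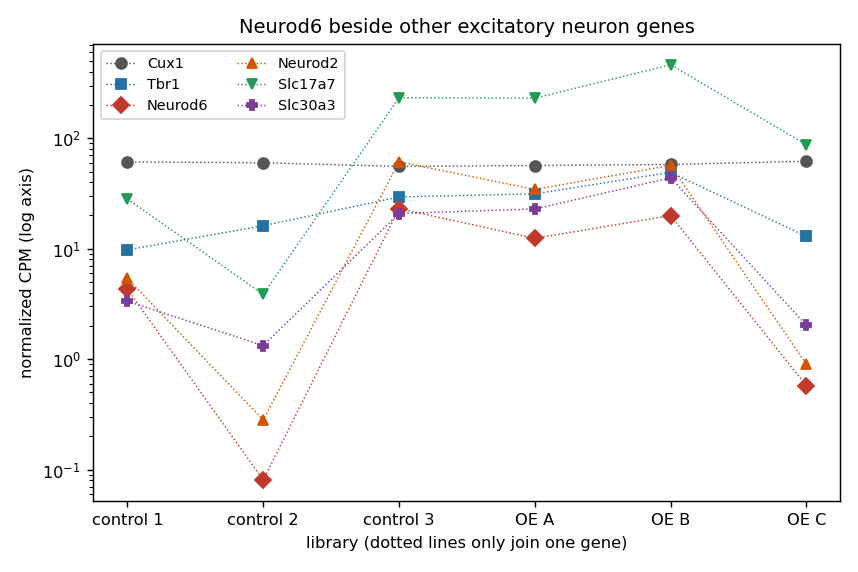
Normalized CPM (log axis) of *Neurod6*, *Neurod2*, *Slc17a7*, *Slc30a3*, *Tbr1* and *Cux1* in the 6 libraries, where dotted lines join the values of 1 gene. *Neurod6* and *Neurod2* drop together in control 2 and library C, *Slc17a7* is lowest in control 2 at 3.86, and *Cux1* stays between 55.6 and 62.0.

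Within groups, the factors fell into steady and variable ones. The within-group SD of log2 values was 0.07 for *Cux1*, smaller than in nearly all genes tested (4.13% had a smaller one), 0.17 for *Tle4*, 0.18 for *Cux2* and 0.32 for *Rorb*, beside a median of 0.22 for all genes tested. It was 0.64 for *Fezf2*, 0.65 for *Bcl11b*, 0.70 for *Foxp2*, 0.87 for *Tbr1* and 2.49 for *Neurod6*, each larger than in at least 94.4% of genes tested. Control 2 was the lowest library for 5 of the 9 factors (*Cux2*, *Bcl11b*, *Fezf2*, *Foxp2* and *Neurod6*) and the highest for 0. Among pairs of factors, the profiles of *Cux1* and *Tle4* were the most alike, with a root mean square difference of 0.11 log2 units, and those of *Tle4* and *Neurod6* the least alike, at 2.14. Of genes outside the factors, *Foxp1* was the third nearest to its paralog *Foxp2*, at 0.20, and the nearest to *Rorb* were *Tspan2* (0.05), the layer regulator *Zfpm2* (0.05) and *Gatm* (0.07). *Tspan2* and *Gatm* are known from oligodendrocytes, and the oligodendrocyte list, like *Rorb*, was highest in control 3 (0.76) and next in control 2 (0.09). The part of oligodendrocyte markers in the level of *Rorb* was not tested. The genes most like the mean profile of all 9 were *Ppp1r1a* (0.08), *Mme* (0.08), *Rab3d* (0.09), *Dlgap3* (0.11) and *Chn1* (0.11). These distances describe 6 libraries and carry no test.

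Per kilobase of the longest transcript, the normalized levels had an order whose neighbours mostly overlapped. *Bcl11b* was the highest at 13.0 ± 5.46 CPM per kilobase (SD over 6 libraries) and *Tle4* next at 12.3 ± 1.22, but *Bcl11b* was above *Tle4* in 3 of 6 libraries. *Tbr1* followed at 6.23 ± 3.73, below *Tle4* in 5 of 6 libraries. *Neurod6* (4.68 ± 4.62), *Cux2* (4.64 ± 0.863) and *Cux1* (4.58 ± 0.197) were close to each other, and *Fezf2* (4.05 ± 2.33), *Foxp2* (3.46 ± 1.29) and *Rorb* (2.82 ± 0.894) were the lowest. No neighbours in this order were ranked the same way in all 6 libraries. With the mean length of the transcripts of a gene in place of the longest, 1 of the 9 genes, *Bcl11b*, kept its place, so the order of the others depends on which transcript is taken.

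Measured relative to the cortical excitatory neuron markers of the same library, all 9 factors had lower means in *AP1AR-DT* OE mice, but the groups of each overlapped. The median of these log2 differences was -0.65 over the factors and -1.003 over all genes tested, since the markers themselves had higher means in *AP1AR-DT* OE libraries. For 5.62% of all genes tested the *AP1AR-DT* OE libraries were all below the controls on this scale, and for 0 of the 9 factors. *Rorb* was the lowest at -1.51 (exact permutation P = 0.2), followed by *Cux1* at -0.998 (exact permutation P = 0.3) and *Tle4* at -0.99 (exact permutation P = 0.2). *Fezf2* at -0.19, *Bcl11b* at -0.21, *Neurod6* at -0.29 and *Tbr1* at -0.31 had the smallest differences (exact permutation P between 0.7 and 0.9). On this scale *Fezf2* was between -4.11 and -3.82 in all *AP1AR-DT* OE libraries and between -4.69 and -3.20 in controls. The spread of *Fezf2* in *AP1AR-DT* OE mice was thus 0.143 (SD, n = 3) relative to the markers.

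The other genes of layer identity were taken from lists of 22 further regulators, 14 paralogs of the factors and 26 layer effector genes. Of the 61 tested, 13 were DEGs (21.3%, beside 12.2% of all genes), 7 higher and 6 lower, and 0 passed adjustment with edgeR while 4 did with DESeq2, which passed 2.06% of all genes tested. Of the regulators, 3 rose, 4 fell and 15 were not called. Those higher included *Pou3f3* (Log2FC 0.46) and *Pou3f1* (0.61), which encode POU factors of upper-layer and other projection neurons. *Sox5* (-0.53), a regulator of deep-layer neurons, had 25.7, 32.6 and 26.0 normalized CPM in controls 1 to 3 and 19.8, 18.6 and 19.8 in libraries A to C. For *Sox5* every *AP1AR-DT* OE library was thus below every control (edgeR adjusted P = 0.295). A separation in either direction was seen for 22.4% of all genes tested. *Tshz2* (-0.60), *Zfpm2* (-0.53) and *Nfia* (-0.36) were also lower.

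Of the paralogs, 13 were tested, of which *Tle5* rose (0.37) and *Rora* fell (-1.93). *Rora*, the paralog of *Rorb*, had 32.8, 48.9 and 140 normalized CPM in controls 1 to 3 and 28.5, 25.4 and 4.23 in libraries A to C. Every *AP1AR-DT* OE library was below every control, and 22.4% of all genes tested showed a separation in either direction. Like *Rorb*, *Rora* was highest in control 3, where the thalamic list was highest. *Rora* was lowest in library C, where the thalamic list (-0.29) was the highest of the *AP1AR-DT* OE libraries. The part of thalamic markers in the level of *Rora* was not tested. Without controls 2 and 3 the Log2FC of *Rora* was -0.76. *Eomes*, the paralog of *Tbr1*, which is also used by mitral cells of the olfactory bulb, was not called, at 0.934, 3.61 and 6.65 normalized CPM in controls 1 to 3 and 0.641, 0.464 and 16.5 in libraries A to C. Its highest value was in library C, as for the olfactory genes *Cdhr1* and *Omp*, and their part in the level of *Tbr1* in that library was not tested. Among the effector genes of the upper layers and layer 4, *Mdga1* (0.46) and *Plxnd1* (1.06) rose and *Calb1* (-0.97) fell, with 10 not called. Of the 13 effector genes of the deep layers, *Ccn2*, a marker of layer 6b neurons that is also expressed in blood vessels, rose and 12 were not called. The median Log2FC of this deep list was 0.34, with 9 genes positive and 4 negative. Its mean level, with *Ccn2* included, did not overlap between groups (exact permutation P = 0.1). The margin was narrow, as control 3 (-0.003) and library C (0.02) were nearly equal. The list without *Ccn2* was not tested. That level was -0.34 to -0.003 in controls and 0.02 to 0.38 in *AP1AR-DT* OE libraries. *Ccn2* had 5.36, 2.69 and 4.82 normalized CPM in controls 1 to 3 and 14.7, 21.0 and 9.57 in libraries A to C. Every *AP1AR-DT* OE library was above every control library, as for 10.4% of all genes tested. The list of 8 endothelial markers also did not overlap between groups, at -0.19 to -0.15 in controls and 0.07 to 0.39 in *AP1AR-DT* OE libraries, and was highest in library B, as *Ccn2* was. Of these markers 3 were called higher and 0 lower, their summed level was 113 to 128 normalized CPM in controls and 140 to 185 in *AP1AR-DT* OE libraries, and their part in the level of *Ccn2* was not tested. The Log2FC of *Ccn2* was 1.82 ± 0.361 (SE; edgeR adjusted P = 0.295). *Ccn2* stayed called after correction for GC content (1.81) and without controls 2 and 3 (1.49). The genes called higher in these lists had a GC content of 49.2% to 63.9% in their longest transcript and those called lower 36.8% to 51.3%. After correction for GC content 8 genes of the lists were called, 6 of them also called without it, and without controls 2 and 3 there were 8, 3 of them also called with all libraries, which were *Sox5*, *Tle5* and *Ccn2*.

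**Figure D4:**
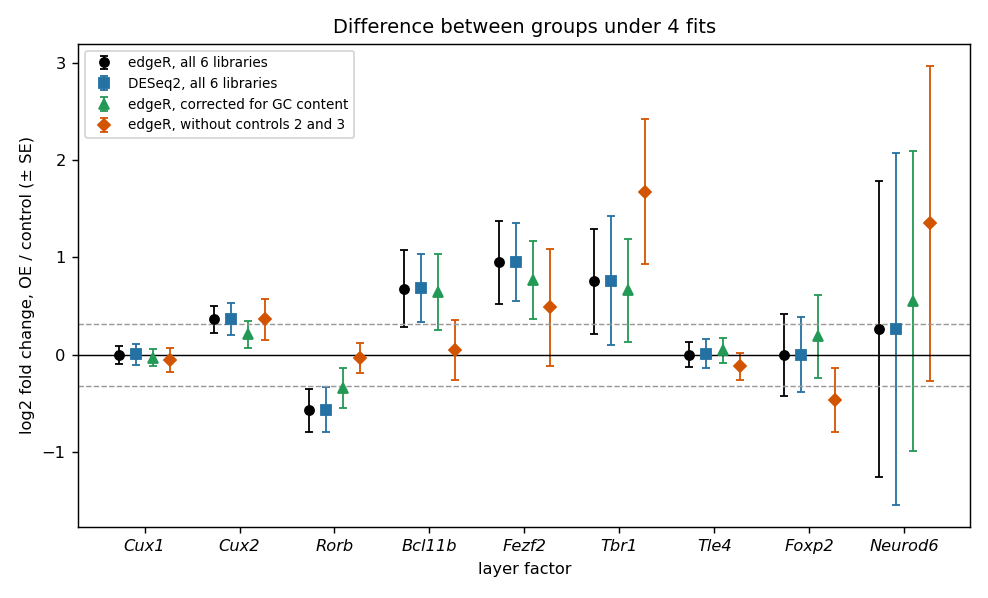
Log2FC (*AP1AR-DT* OE over control, ± standard error) of the 9 factors with edgeR and all libraries (black), DESeq2 (blue), edgeR corrected for GC content (green) and edgeR without controls 2 and 3 (orange), with dashed lines at ± 0.32. *Rorb* moves from -0.57 to -0.03 and *Bcl11b* from 0.68 to 0.05 without controls 2 and 3, while *Cux1* and *Tle4* stay within 0.12 of 0.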

How the data were processed

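The authors extracted RNA with TRIzol, aligned reads to GRCm38 with Bowtie2, quantified GENCODE genes with StringTie and deposited raw counts per gene, which StringTie's script derives from coverage. Versions are not given in the paper. The submitters' processing notes name TopHat2 2.0.4, HTSeq, Cuffdiff, edgeR 2.6.12 and mm9 instead, a difference that was not resolved. Because Bowtie2 does not split reads at introns, genes with short exons may be undercounted. The authors' comparison columns (fold changes, P values) were not used.

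Counts were tested in R 4.3.3 with edgeR 4.0.16 (filterByExpr, TMM, quasi-likelihood F-test, two-sided, Benjamini-Hochberg adjustment over 21844 genes) with no covariate. Normalized CPM use the TMM factors, and log2 values a pseudocount of 0.5. Alternatives were DESeq2 1.42.0, limma-voom (limma 3.58.1), other scalings and filters, GC correction by splines with 5 degrees of freedom, and leaving out each library. Leaving out controls 2 and 3 together was chosen after seeing the data; the fit then assumes that the lone control varies like the *AP1AR-DT* OE libraries. Exact permutation tests used log2 values. *Aes*, *Fam84b* and *Ctgf* were matched by identifier (*Tle5*, *Lratd2*, *Ccn2*). The fits were tested on simulated counts, in which 200 genes were changed by 1 log2 unit. After adjustment DESeq2 passed 97 changed and 72 unchanged genes, and edgeR and limma-voom passed 0 of either. Failing adjustment with edgeR or limma-voom therefore does not show that a gene was unchanged. DESeq2's adjusted P values are given only as counts and within the ranges over all fits. No pair of libraries agreed within sampling noise. The labels give separate mice.

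The factors and lists were chosen with earlier results of these data known. Named were all 9 factors, up to 6 called genes of each list by smallest P, and the 5 genes most like the mean profile. *Slc17a7*, *Eomes*, *Neurod2*, *Slc30a3*, *Foxp1*, *Tspan2*, *Gatm*, *Cdhr1* and *Omp* were named after their values were seen. Some list genes are counted but not reported here by name. Genes were compared per length only in levels per kilobase.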

Additional observations from a re-analysis of the deposited data

How the results depend on the processing

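The number of factors called, 2 with edgeR and all libraries, was 4 with DESeq2 and 0 after correction for GC content or without controls 2 and 3. Leaving out 1 library at a time gave 0 to 3, namely 0 without control 2 or library A, 1 without control 3 (*Cux2*) or library B (*Cux2*), and 3 without control 1 (*Rorb*, *Bcl11b*, *Fezf2*) or library C (*Cux2*, *Fezf2*, *Tbr1*). It was 2 with limma-voom, DESeq2's size factors, library totals, no filter, and at least 10 counts in every library, which removes *Neurod6*. The number with an adjusted P under 0.05 was 0 in all 14 alternatives. The median Log2FC of the factors lay between 0.05 and 0.43 in all of them, and moved by less than the spread between replicates. *Cux1*, *Tle4* and *Foxp2* had a Log2FC close to 0, well within 1 standard error. *Cux1* turned positive with DESeq2 (0.0058), DESeq2's size factors (0.0057), library totals (0.0041) and no filter (0.0085), and lay between -0.028 and 0.028 when 1 library was left out. *Foxp2* was positive in 10 of 15 fits, with DESeq2 (0.0028), limma-voom (0.15), DESeq2's size factors (0.0031), library totals (0.015), no filter (0.0065) and GC correction (0.19), and lay between -0.35 and 0.30 when 1 library was left out. *Neurod6* turned without control 1 (-0.07), control 2 (-0.31) or library B (-0.49) and ranged up to 2.35, and *Tle4* turned with at least 10 counts (-0.0016) and without controls 2 and 3 (-0.12), and lay between -0.097 and 0.069 when 1 library was left out. Of the list genes, 13 with all libraries, 8 were called after GC correction and 8 without controls 2 and 3, and 6 to 23 when 1 library was left out, with the lowest number without library A or B and the highest without control 1. Over all genes, 2675 were called with all libraries, 1566 after GC correction, 1620 without library A and 1430 without library B. The number was 3391 without control 1, 3508 without library C, 2204 without control 2 and 2430 without control 3. Those with an adjusted P under 0.05 numbered 6 with edgeR and 450 with DESeq2, and with edgeR 0 without library B, 3 without control 2, 13 without control 3 and 14 without controls 2 and 3. Relative to *Slc17a7* alone, the median difference of the factors was -2.43 in place of -0.65. Relative to the full list of excitatory markers, it lay between -1.02 and -0.44 when 1 library was left out. By mean transcript length, 1 factor kept its rank per kilobase. Apart from the settings that leave out libraries or change which genes are tested, the cause of these changes was not tested. No paired analysis was run because the labels give separate mice and name no pairs. *Neurod6* rests on 4 and 30 counts in control 2 and library C.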
